A study of Mus musculus with 13 samples.

Results

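Baseline coverage of mouse repeats and piRNA loci was compared between 2 unedited tumor cell lines, the B16 line labelled as melanoma and the KP line labelled LUAD (lung adenocarcinoma). The comparison used the 4 libraries labelled WT, B16 WT1 and WT2 and KP WT1 and WT2, out of 13 strand-specific RNA sequencing libraries in the series. The other 9 libraries come from edited cells of these lines, 6 of B16 (Trp53 KO, Tdg KO and Tdg Trp53 DKO) and 3 of KP (Tdg KO), and served to estimate the spread, with the ranges of a few of their values given apart. B16 is a long-established line from a pigmented tumor of C57BL/6 mice and is known to carry an active endogenous murine leukemia virus. The labels do not spell out KP, give no Trp53 status or mouse strain for that line, and do not say whether libraries of a group come from separate cultures, so p-values measure only the spread between these libraries. Both lines were grown in the same medium. The deposited tables hold repeats and piRNA loci only, and none of 13 fixed melanocyte and alveolar marker genes was the host of a piRNA locus (0 found), so the labelled cell types were not checked against markers. The lines were deposited in separate tables, and line and table cannot be told apart here.

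Long terminal repeat (LTR) retroelements are remnants of retroviral infections: an internal sequence codes for, or once coded for, capsid and reverse transcriptase, and an LTR at each end carries the promoter and the polyadenylation signal. Mouse families still able to move include the intracisternal A particles (IAP) and the early transposons (ETn) with their coding relatives MusD, whereas VL30 elements are noncoding retroelements packaged by leukemia viruses. LINE-1 elements copy themselves, and the short B1 and B2 SINEs depend on LINE-1 enzymes and are transcribed by RNA polymerase III. The piRNA loci in the tables are genome intervals from which small RNAs that silence transposons arise in the germ line. In these libraries their coverage reports long RNA from the interval, not piRNA.

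Each table had 2035 entries, and 535 repeats, 353 piRNA loci and 7SL carried signal in at least 1 library. Values are mean read coverage per base of the entry, so levels of entries of different length can be set side by side. The 7SL RNA, the scaffold of the signal recognition particle, took 94.3% and 89.6% of all coverage in the B16 libraries, against 97.9% and 96.8% in the KP libraries. Coverage per base weights this short entry of 329 bases heavily. By covered bases 7SL took 40.9% and 30.2% in B16, against 82.3% and 70.9% in KP. Its share was lower in both B16 libraries than in either KP library, and the two-sided exact permutation test gave p = 0.333, the smallest value that 2 against 2 libraries allow. It was therefore left out of every scale below.

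Without 7SL, summed coverage was 35564 and 30144 in B16 WT and 7436 and 7750 in KP WT, or about 942862 and 661588 fragments against 81335 and 104574. The B16 libraries thus held many more informative fragments, and an entry at 0 in KP can be one that was too rare to be sampled. All values below are scaled coverage, the coverage per 10000 of this total in the same library. Antisense coverage made up 26.5% and 32% of the total in B16, against 17.4% and 21.6% in KP. The piRNA loci held 27.9% and 19.9% in B16, against 29.5% and 28.1% in KP, so their share was slightly lower in B16 without overlap, and B16 WT1 lay close to the KP libraries. In bulk RNA, fewer cells using an element and less RNA per cell cannot be told apart.

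The lines differed in which repeats led the ranking. Among sense strands of 535 repeats, IAPEZI, an internal sequence of IAP, ranked 1 in both B16 libraries, against 23 and 10 in the KP libraries. MMVL30, the internal sequence of VL30, ranked 37 and 67 in B16, against 1 and 1 in KP. The internal sequence of the murine leukemia virus family, RLTR4I_MM, kept its place near the top, with ranks 3 and 2 in B16 and 3 and 2 in KP. As a description over 360 repeats with sense signal in at least 1 of the 4 libraries, Spearman's rho was 0.858 between the B16 libraries and 0.807 between the KP libraries, against 0.663 to 0.688 for the 4 pairs across lines, and these points share a library and its depth. The replicates had 15 (B16) and 16 (KP) of their 20 best-covered sense repeats in common, whereas pairs across lines had 5 to 7. The 5 best-covered strands of all entries held 44.5% and 33.1% of coverage in B16, against 50.2% and 46.2% in KP, so both profiles were dominated by few entries.

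By Spearman's rho the antisense strands of repeats did not separate the lines in this way, whereas their best-covered entries did. Over 400 repeats with antisense signal, Spearman's rho was 0.895 between the B16 libraries but 0.724 between the KP libraries, below the 0.747 to 0.802 of the 4 pairs across lines. Pairs across lines shared 5 to 11 of their 20 best-covered antisense repeats, against 16 in B16 and 15 in KP.

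**Figure D1:**
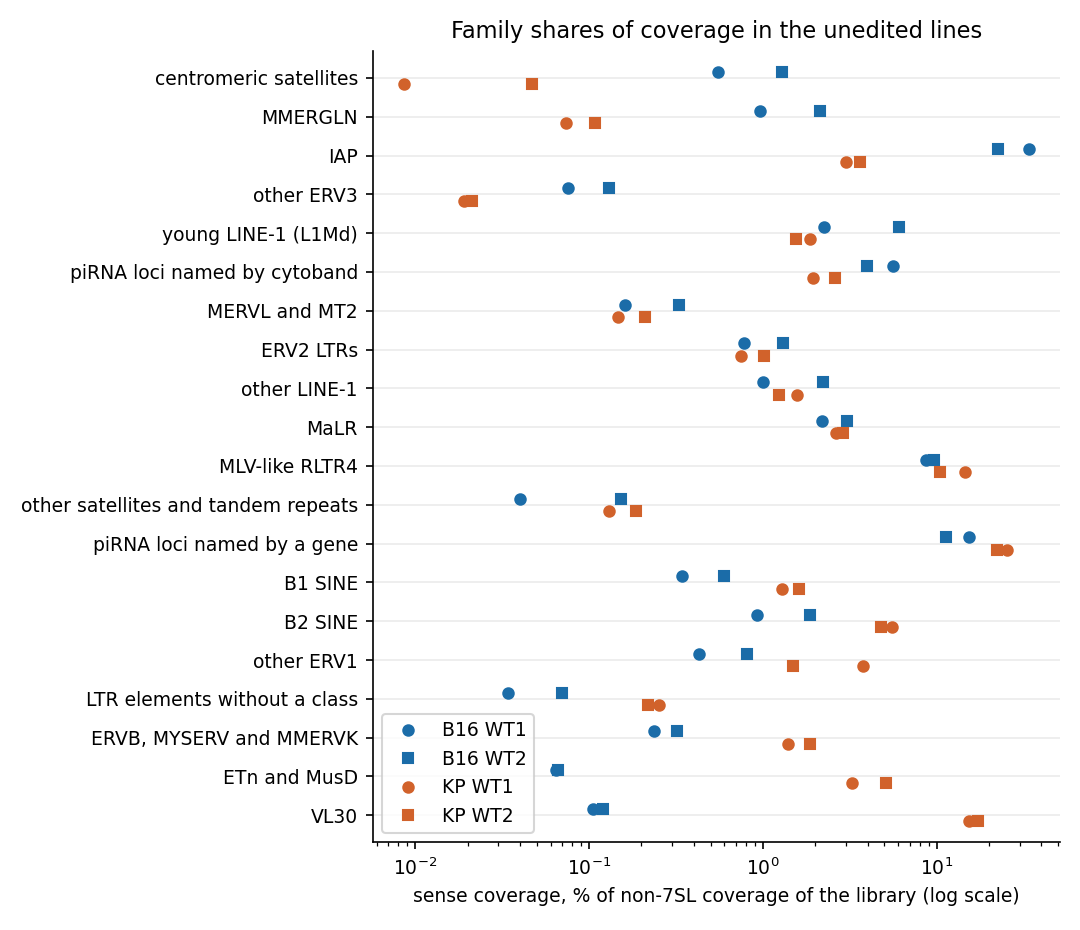
Sense coverage of each family as a percent of the non-7SL coverage of its library (log scale), with blue points for the B16 libraries, orange points for the KP libraries, and families ordered by the ratio of the group means. IAP held 33.7% and 22.5% in B16 against 3.01% and 3.6% in KP, VL30 held 0.105% and 0.121% in B16 against 15.3% and 17.3% in KP, and MaLR overlapped between lines.

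Over all 948 strands of entries that passed the filter on mean scaled coverage, 84 (8.86%) were higher in B16 and 45 (4.75%) were higher in KP by limma at an adjusted p of 0.05. The groups did not overlap, with B16 above, for 353 strands (37.2%), and with KP above for 281 (29.6%). Of 639 repeat strands, 67 (10.5%) passed as higher in B16 and 22 (3.44%) as higher in KP. Of 309 strands of piRNA loci, 17 (5.5%) passed as higher in B16 and 23 (7.44%) as higher in KP. Of the 84 B16 calls, 58 were at 0 in both KP libraries, and 41 of these averaged less in B16 than 3 fragments per KP library would give, so that no fold is given for them. Of the 45 KP calls, 6 were at 0 in both B16 libraries.

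The median log2 change over all 948 strands was 0.51. It was 1.62 over 334 antisense repeat strands and 0.54 over 305 sense repeat strands. Changes of repeats are best read against the median of their strand. The split between directions depended on the scale: scaling by the median ratio of strands gave 88 higher in B16 and 102 higher in KP, quantile normalization 118 and 147, and scaling by covered bases 70 and 200. Under all 6 scalings 61 (6.43%) kept passing as higher in B16 and 42 (4.43%) as higher in KP. Calls were also sensitive to single libraries, with 36 and 4 without B16 WT1, 18 and 6 without B16 WT2, 44 and 16 without KP WT1 and 50 and 13 without KP WT2. Passing under all 6 scalings and without each library in turn left 16 strands higher in B16 and 4 higher in KP. The 4 were the sense strands of MMVL30, RLTR6I_MM and RNLTR12-int and of a piRNA locus on chromosome 17, 17-qA3.3-27363.1. The 16 include strands at 0 in both KP libraries, such as the antisense strands of RLTRETN_MM, BGLII and MLTR25C. For these, the refits cannot tell absence from too few fragments in KP.

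**Figure D2:**
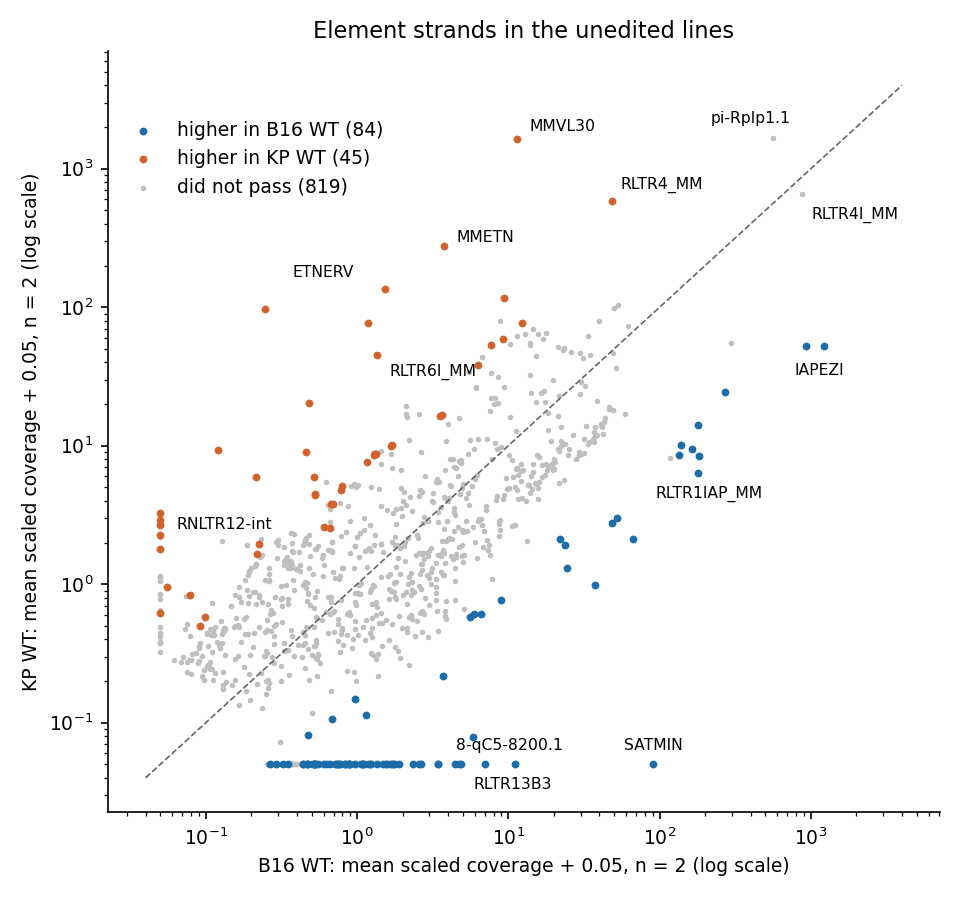
Mean scaled coverage plus 0.05 of each of the 948 strands in B16 WT (horizontal, n = 2) and KP WT (vertical, n = 2), both on log scales, with the dashed line at equality. The 84 strands higher in B16 (blue) lie below the line, with 58 of them on the lower edge where KP is at 0, and the 45 strands higher in KP (orange) lie above it, MMVL30 farthest up.

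IAP elements were the leading repeat family of B16. Their sense strands held 33.7% and 22.5% of coverage in B16 WT, against 3.01% and 3.6% in KP WT, a ratio of means of 8.51 (exact permutation p = 0.333, n = 2 each). Of 30 sense strands tested, 6 passed as higher in B16 and 0 as higher in KP, with a median log2 change of 1.22. Over all 305 sense repeat strands 25 and 18 passed, with a median of 0.54. The groups did not overlap in the family sum, but the elements of the family did not move as a block.

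Among internal sequences, IAPEZI had 1464 and 976 scaled coverage in B16, against 38.6 and 66.2 in KP. As deposited, its coverage per base was 5205 and 2942 in B16 and 28.7 and 51.3 in KP. The lower B16 library lay far above the higher KP library, and the log2 change was 4.56 ± 1.02 (SE; limma adjusted p = 0.021). IAPLTR1a_I_MM, a related IAP internal sequence, had 1137 and 710.9 in B16, against 38.0 and 66.2 in KP (log2 change 4.16, limma adjusted p = 0.026). Both passed under all 6 scalings, and neither passed with any of the 4 libraries left out, where IAPEZI's log2 change stayed between 4.17 and 4.95 with limma adjusted p of 0.0626 to 0.107.

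Of 4 LTR entries called on the sense strand, 3 passed without each library in turn. RLTR1IAP_MM, an IAP LTR entry, had 182.5 and 174.3 in B16, against 9.34 and 3.29 in KP. IAPLTR1_Mm_LTR had 56.6 and 75.9 in B16, against 3.29 and 0.844 in KP. Neither pair of groups overlapped, and the log2 changes were 4.99 (limma adjusted p = 0.00511) and 5.25 (limma adjusted p = 0.00242), each passing without each library in turn. IAPEY3C_LTR had 2.76 and 5.98 in B16 and 0 in both KP libraries, at least 1.12-fold higher against a floor of 3 fragments per library (limma adjusted p = 0.00374). IAPLTR3, the other sense strand that passed, rested on 4.94 fragments in both B16 libraries together and did not pass with any library left out (limma adjusted p of 0.0631 to 0.129). IAPA_MM, a sense strand of the family that ranked 4 and 4 in B16, had 396.6 and 198.3 in B16 and 67.8 and 43.2 in KP and did not pass (log2 change 2.37, limma adjusted p = 0.123).

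The IAPEY4 entries had the other order of lines, unlike IAPEY3C_LTR above, and did not pass. IAPEY4_I, the internal sequence of IAPEY4, had 8.27 and 9.36 in B16, against 63.4 and 96 in KP. The groups were far apart, yet the change of -3.14 on the log2 scale missed the threshold on the main scale (limma adjusted p = 0.055), while it passed under 5 of the 6 scalings. Its LTR, IAPEY4_LTR, had 2.03 and 2.08 in B16, against 16.5 and 22.4 in KP (log2 change -3.19, limma adjusted p = 0.0503). Within a library, IAPEZI had 177 and 104.3 times the coverage of IAPEY4_I in B16, against 0.609 and 0.69 times in KP. That ratio needs no common scale, and IAPEY4_I stood above IAPEZI only in the KP libraries among the 4.

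VL30 was the leading repeat of KP. Sense coverage of MMVL30 was 10.5 and 12.1 in B16 WT, against 1534 and 1726 in KP WT, and the deposited coverage per base was 37.4 and 36.4 in B16 against 1140 and 1337 in KP. The KP libraries exceeded the B16 libraries even without scaling, although they held fewer fragments outside 7SL. The log2 change was -7.17 ± 0.57 (SE; limma adjusted p = 7.22e-05), and without each library in turn it stayed between -7.27 and -7.07. As a share of coverage VL30 held 0.105% and 0.121% in B16, against 15.3% and 17.3% in KP, a ratio of means of 144.3 in favour of KP. Antisense coverage of MMVL30 did not pass, with 2.96 and 5.37 in B16 against 1.08 and 3.03 in KP (limma adjusted p = 0.233).

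The best-covered early transposons were also higher in KP. Of 5 sense strands of ETn and MusD, 3 passed as higher in KP and 0 as higher in B16, beside 18 and 25 of 305 sense repeat strands. MMETN had 4 and 3.46 in B16, against 207.4 and 346.5 in KP, a log2 change of -6.15 ± 1.23 (SE; limma adjusted p = 0.013). ETNERV, the related MusD-type entry, had 1.39 and 1.55 in B16, against 111 and 159.1 in KP, a log2 change of -6.45 ± 1.16 (SE; limma adjusted p = 0.00765). Every KP value of both strands lay above every B16 value. The sense strands of the low entries ETnERV2 and ETnERV3 did not pass. ETnERV3 lay higher in B16, at 0.343 and 0.561 in B16 and 0.0692 and 0.0651 in KP (log2 change 2.06, limma adjusted p = 0.147), and ETnERV2 had a log2 change of 0.30 that was -0.12 under the median ratio. The LTR entry RLTRETN_MM had 0.523 and 0.772 in B16, against 4.82 and 2.68 in KP (log2 change -2.41, limma adjusted p = 0.0322), from 4.51 and 6.1 fragments per group.

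The calls on the ETn strands rested on single libraries more than that on MMVL30. MMETN passed only without KP WT1, and its limma adjusted p reached 0.0957 otherwise, with log2 changes of -6.52 to -5.78. ETNERV passed without either KP library, with limma adjusted p of 0.0507 without B16 WT1 and 0.0531 without B16 WT2. RLTRETN_MM passed with none of the 4 left out (limma adjusted p of 0.0574 to 0.131). On the antisense strand, the 4 entries other than RLTRETN_MM had the other order of lines, with log2 changes above 0 that did not pass. RLTRETN_MM antisense passed, with 1.04 and 1.85 in B16 and 0 in both KP libraries (limma adjusted p = 0.00111, from 9.98 fragments in B16). This B16 level was below the floor of fragments per KP library, so no fold is given. The call cannot tell absence in KP from too few fragments there.

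**Figure D3:**
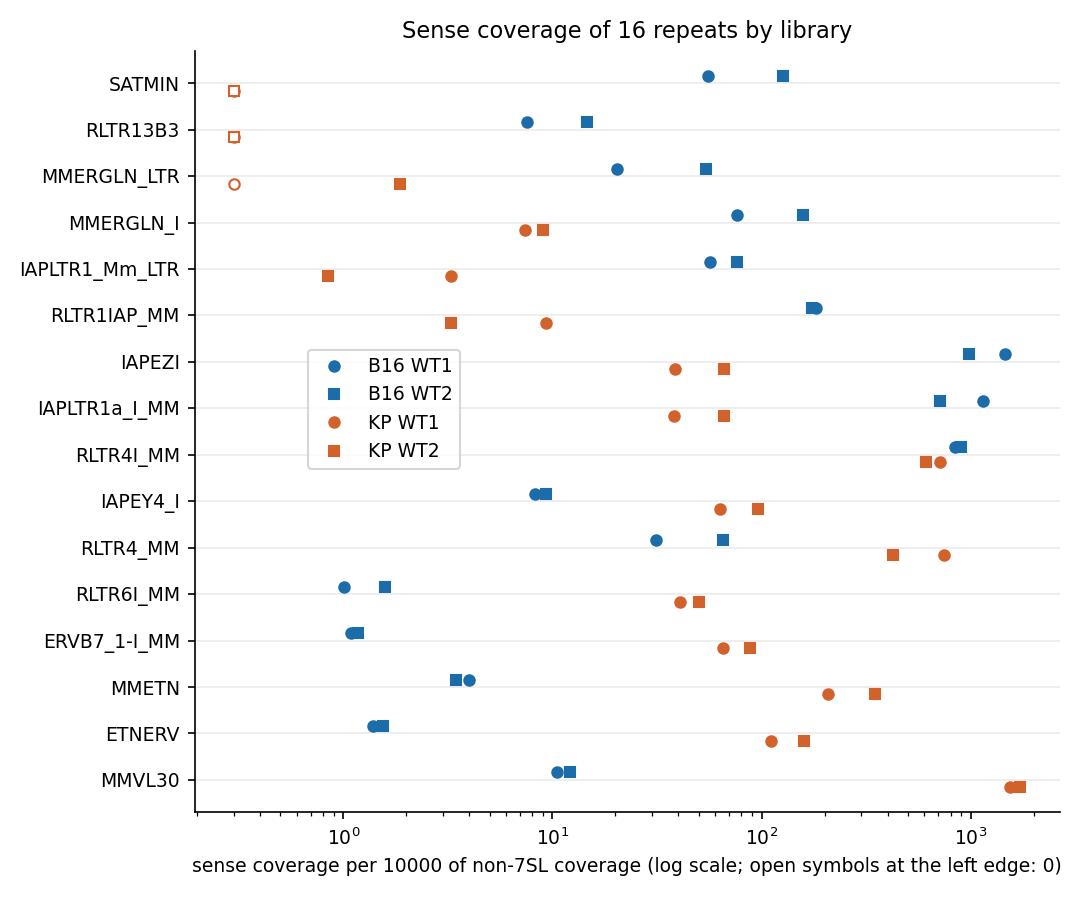
Sense coverage per 10000 of non-7SL coverage of 16 repeats in each library (log scale), with blue B16 points drawn above orange KP points and open symbols at the left edge for 0. SATMIN had 55.2 and 126.7 in B16 and 0 in KP, MMVL30 had 10.5 and 12.1 in B16 and 1534 and 1726 in KP, and RLTR4I_MM lay between 609.1 and 899.5 in all 4 libraries.

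The murine leukemia virus family was high in both lines, but its internal sequence and its LTR differed. RLTR4I_MM, the internal sequence, had 836.7 and 899.5 in B16, against 709 and 609.1 in KP, and did not pass (log2 change 0.40 ± 0.89, SE; limma adjusted p = 0.751), and scaling by the median ratio turned the log2 change to -0.11. RLTR4_MM, the LTR, had 31.4 and 65.7 in B16, against 742.4 and 426.7 in KP, a log2 change of -3.63 (limma adjusted p = 0.0345). The ratio of internal sequence to LTR within a library was therefore 26.6 and 13.7 in B16, against 0.955 and 1.43 in KP. The LTR call did not pass with any of the 4 libraries left out (limma adjusted p of 0.0917 to 0.162), where its log2 change lay between -4.16 and -3.10.

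In the edited libraries of the same lines, which did not enter these means, the ratio of internal sequence to LTR was 15.1 to 39.1 in 6 B16 libraries and 0.812 to 1.22 in 3 KP libraries. The ranges did not overlap. Likewise IAPEZI had 40.7 to 128 times the coverage of MMVL30 in the edited B16 libraries, against 0.00264 to 0.0184 times in the edited KP libraries. The ratio of the same pair in WT libraries was 139.3 and 80.8 in B16 and 0.0252 and 0.0384 in KP. The edited libraries also set the spread of the fit, and they come from the same lines.

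Of 29 sense strands of other gammaretroviral (ERV1) entries, 4 passed as higher in KP and 1 as higher in B16. Over all 305 sense repeat strands, 18 and 25 did. RLTR6I_MM, an internal sequence named with the RLTR6 group, had 1.01 and 1.58 in B16, against 40.8 and 50.3 in KP (log2 change -5.11 ± 0.66, SE; limma adjusted p = 0.00121), and passed without each library in turn. The LTR RLTR6_MM had 6.17 and 12.3 in B16, against 199.7 and 34.7 in KP (log2 change -3.25, limma adjusted p = 0.0264). The KP libraries differed widely for this LTR, and without KP WT1 the log2 change was -1.99 (limma adjusted p = 0.127). RNLTR12-int had 0 in both B16 libraries, against 2.38 and 2.88 in KP, at least 50.6-fold higher in KP against a floor of 3 fragments per B16 library (limma adjusted p = 0.00166). All 3 belong to the 4 called as higher in KP.

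MMERGLN, another endogenous gammaretrovirus, passed in the other direction. Its LTR, MMERGLN_LTR, had 20.3 and 54 in B16, against 0 and 1.87 in KP, a log2 change of 6.74 ± 1.30 (SE; limma adjusted p = 0.0107), and it lost its call only without B16 WT2 (limma adjusted p = 0.105). The internal sequence MMERGLN_I had 75.9 and 158 in B16, against 7.37 and 8.97 in KP, and just missed the threshold (log2 change 3.74, limma adjusted p = 0.0517). Both entries lay above KP in each B16 library. Among antisense strands, RLTR1B_MM, an LTR, had 18.2 and 30.7 in B16, against 1.26 and 1.24 in KP (log2 change 4.19, limma adjusted p = 0.00111), and passed without each library in turn.

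Betaretroviral entries were called in both directions. Of 19 sense strands of ERVB, MYSERV and MMERVK, 2 passed as higher in B16 and 4 as higher in KP. Over all 639 repeat strands 67 (10.5%) and 22 (3.44%) did, so the B16 count lay near the share of all repeats. The family held 0.236% and 0.319% of coverage in B16, against 1.39% and 1.86% in KP. ERVB7_1-I_MM, an internal sequence, had 1.09 and 1.17 in B16, against 65.2 and 88 in KP (log2 change -6.0, limma adjusted p = 0.0116). It kept its call only without KP WT1, with limma adjusted p up to 0.0734. An LTR entry of the same series, ERVB7_2-LTR_MM, had 4.4 and 4.89 in B16 and 0 in both KP libraries, at least 1.46-fold higher (limma adjusted p = 0.028), and did not pass with any of the 4 libraries left out. MMERVK10C, the best-covered member, had 11.9 and 13.7 in B16, against 50.9 and 77.5 in KP and did not pass (limma adjusted p = 0.3).

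LTRs of class ERV2 passed mostly as higher in B16. Of 97 antisense strands 20 passed as higher in B16 and 0 as higher in KP, with a median log2 change of 1.93, and of 81 sense strands 9 passed as higher in B16 and 3 as higher in KP, with a median of 0.71. For comparison, 42 of 334 antisense repeat strands and 25 of 305 sense repeat strands passed as higher in B16, with medians over all of 1.62 and 0.54. Several of the 20, among them BGLII, MLTR25A, MLTR25C and RLTR10D2, were at 0 on the antisense strand in both KP libraries. Low sampling in KP limits what such calls show. RLTR13B3 led the sense strands, with 7.58 and 14.7 in B16 and 0 in both KP libraries, at least 8.88-fold higher (limma adjusted p = 0.000199). Among antisense strands, BGLII_LTR was called with 17.8 and 29.6 in B16, against 1.01 and 2.75 in KP (log2 change 3.74, limma adjusted p = 0.0144), and passed in 2 of the 4 fits with a library left out. Of class ERV3, RLTR35_MM had 2.8 and 6.75 in B16 and 0 in KP, at least 1.89-fold higher (limma adjusted p = 0.00242).

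The minor satellite, the repeat at the mouse centromere core, was seen on the sense strand in B16 and not in KP. SATMIN had 55.2 and 126.7 in B16, and 0 in both KP libraries. It was at least 27.9-fold higher against a floor of 3 fragments per KP library (limma adjusted p = 0.00139), and it ranked 8 and 7 among sense repeats in B16. The call held without each library in turn. GSAT_MM, the major satellite of the surrounding heterochromatin, had 0 and 1.69 on the sense strand in B16 and 0.859 and 4.72 in KP, and did not pass (limma adjusted p = 0.246). In the edited libraries SATMIN ranged from 2.15 to 108.8 in B16 and from 0 to 1.58 in KP, so its level varied widely between B16 libraries.

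B1 SINEs leaned towards KP on both strands, and B2 SINEs on the sense strand. B1 elements, which descend from 7SL RNA, held 0.344% and 0.598% of coverage on the sense strand in B16, against 1.29% and 1.61% in KP, and 0.551% and 0.801% on the antisense strand in B16, against 4.09% and 4.1% in KP. Of 11 sense strands 1 passed as higher in KP, of 12 antisense strands 4 passed, and all 23 had log2 changes below 0. Over all repeats, 18 of 305 sense strands and 4 of 334 antisense strands passed as higher in KP. How reads were shared out among B1 entries is not given in the sources used here, so the 23 may not be separate measurements. B1_Mus1 had 9.59 and 14.9 antisense coverage in B16, against 81.6 and 71.8 in KP (log2 change -2.67, limma adjusted p = 0.045). The 3 called B1 strands with signal in both B16 libraries did not pass with any library left out, where limma adjusted p ranged from 0.101 to 0.169. The 7SL share was also higher in KP, and whether B1 entries hold reads of 7SL was not tested.

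B2 elements, which descend from a transfer RNA, held 0.925% and 1.87% of sense coverage in B16, against 5.54% and 4.77% in KP. All 13 sense strands had log2 changes below 0, from -2.68 to -1.25, and the groups did not overlap for 12, but 0 of 13 passed. B2_Mm2, the best-covered by its mean over the lines, had 9.44 and 19.5 in B16, against 73.4 and 66.7 in KP (log2 change -2.36, limma adjusted p = 0.0691). On the antisense strand B2 held 0.52% and 0.404% in B16, against 0.143% and 1.06% in KP. Of 11 antisense strands 8 had log2 changes above 0, and 0 were called. The median of the 11 was 1.67, near the 1.62 of all antisense repeat strands. The sequences of B2 entries are alike, and how reads were shared out among them is not given in the sources used here, so the 13 strands are not separate measurements.

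Young LINE-1 elements leaned towards B16. L1Md sense strands held 2.24% and 6.09% of coverage in B16, against 1.86% and 1.55% in KP, and antisense strands 7.51% and 9.65% in B16, against 1.89% and 4.08% in KP. All 27 sense and all 27 antisense strands had log2 changes above 0, from 0.67 to 2.82 and from 1.19 to 2.02, yet 0 passed. Over all repeats, 176 of 305 sense strands and 281 of 334 antisense strands lay above 0, with medians of 0.54 and 1.62. The L1Md medians were 1.19 and 1.65, so the antisense lean was near that of repeats at large. How reads were shared out among L1Md entries is not given either, so the 27 may not be separate measurements. Scaled by covered bases, 20 of the 27 sense strands and all 27 antisense strands stayed above 0. L1MdF_IV, the best-covered entry, had 13 and 32.7 sense coverage in B16, against 11 and 9.6 in KP (log2 change 1.00, limma adjusted p = 0.424). The B16 libraries differed from each other by more than the first of them differed from KP. MaLR elements, older nonautonomous LTR elements, held 2.2% and 3.06% on the sense strand in B16 and 2.64% and 2.87% in KP, and 0 of 17 sense strands passed. On the antisense strand they held 3.18% and 4.78% in B16 and 4.83% and 4.33% in KP. Of 21 antisense strands 2 passed as higher in B16, the low entries ORR1B1-int and ORR1D1_LTR. The median log2 change of the 21 was 1.00, below the 1.62 of all antisense repeat strands.

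The balance of strands was tested as the log2 ratio of sense to antisense coverage within a library, over 571 elements. Of these, 20 (3.5%) had relatively more sense coverage in B16, and 38 (6.65%) relatively more antisense coverage in B16, with a median change of -0.56. These counts include elements at 0 on both strands in both KP libraries, such as 8-qC5-8200.1, BGLII and MYSERV16_I. The pseudocount sets their strands equal in KP, so such calls reflect B16 alone and compare no strand balance. With the 4 WT libraries alone in the fit 5 and 17 passed. Antisense coverage was 22% and 30.8% of MMVL30 in B16, against 0.0704% and 0.175% in KP (log2 change of the ratio -8.28 ± 0.78, SE; limma adjusted p = 0.000618). For MMETN it was 44.9% and 61.7% in B16, against 0.523% and 0.268% in KP (log2 change of the ratio -8.18, limma adjusted p = 0.00107). In B16 these KP-high elements were thus read from both strands, and their sense coverage was the strand that passed in the coverage test.

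Among elements shifted to sense in B16, IAPLTR1_Mm_LTR had 6.44% and 5.17% antisense coverage in B16, against 61.3% and 78% in KP (log2 change of the ratio 5.23, limma adjusted p = 0.0016). Its KP percentages rest on low scaled coverage, 3.29 and 0.844 in sense and 5.22 and 3 in antisense. IAPEZI had 0.931% and 1.38% in B16, against 10.2% and 8.17% in KP (log2 change of the ratio 3.14, limma adjusted p = 0.0213), and lost this call in 3 of 4 fits with a library left out and with the 4 WT libraries alone (limma adjusted p = 0.0766). RLTR13B3 had 9.67% and 18.6% in B16, and 100% in both KP libraries. Its KP percentages rest on antisense coverage of only 0.435 and 0.369, below the floor of 3 fragments per library. RLTR4I_MM, high in both lines, was read almost wholly in sense in each, with 0.786% and 1.17% antisense coverage in B16 and 0.287% and 0.38% in KP, and did not pass (limma adjusted p = 0.265).

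**Figure D4:**
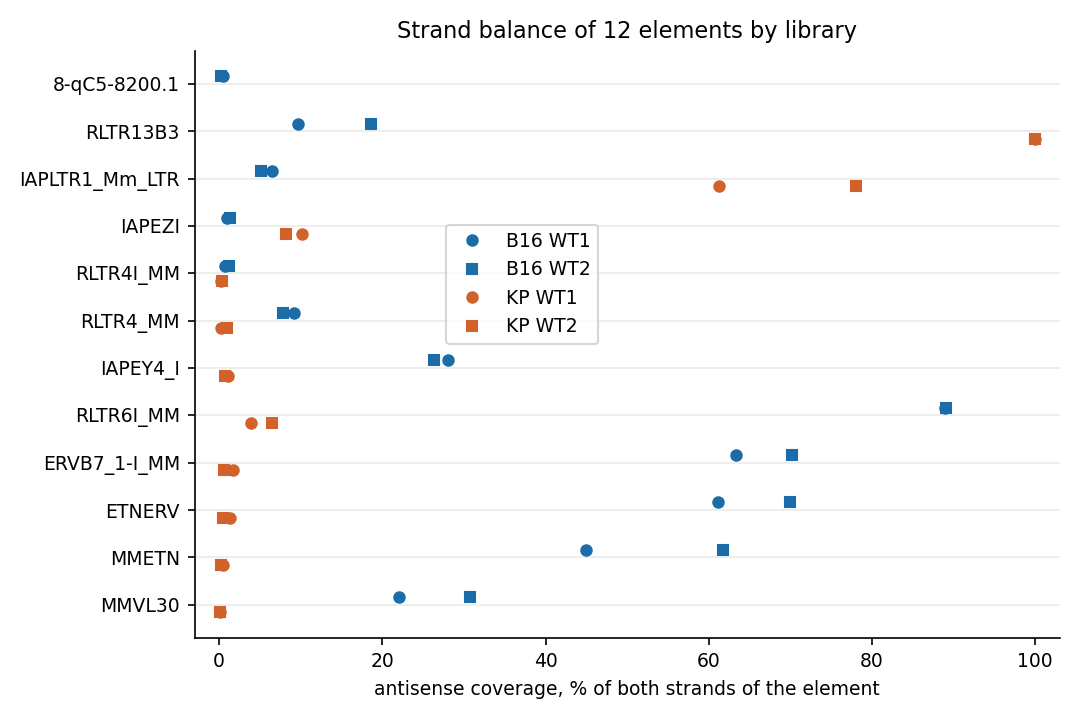
Antisense coverage as a percent of both strands of 12 elements in each library, with blue B16 points above orange KP points; 8-qC5-8200.1 has no KP point because it had no coverage there. MMVL30, MMETN, ETNERV and RLTR6I_MM had 22% to 89.1% in B16 and at most 6.48% in KP. IAPLTR1_Mm_LTR had 6.44% and 5.17% in B16 and 61.3% and 78% in KP, where its coverage was low.

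The piRNA loci were led in all 4 libraries by pi-Rplp1.1, a short locus named for Rplp1, which codes for a ribosomal stalk protein. It had 620.9 and 504.9 in B16, against 1830 and 1514 in KP, and ranked 1 of 706 locus strands in each library. The groups were apart by more than their spread, but the change did not pass (log2 change -1.57, limma adjusted p = 0.146). Loci named for a gene held 15.4% and 11.3% of sense coverage in B16, against 25.2% and 22.3% in KP, and of 88 sense strands 8 passed as higher in B16 and 10 as higher in KP. Loci named by cytoband held 5.62% and 3.96% in B16, against 1.95% and 2.6% in KP, and of 98 sense strands 5 passed as higher in B16 and 4 as higher in KP. Most cytoband loci did not follow that summed share: 64 of the 98 sense strands had log2 changes below 0, with a median of -1.54. For comparison, 17 (5.5%) and 23 (7.44%) of 309 locus strands passed as higher in B16 and in KP. Of 104 host names 94 matched a RefSeq symbol of GRCm38 and 8 an older symbol.

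Several of the best-covered loci of B16 had the same order of lines as IAPEZI. The locus 10-qC1-2617.1 on chromosome 10 had 212.4 and 115.6 antisense coverage in B16, against 6.18 and 12.6 in KP (log2 change 4.14, limma adjusted p = 0.026). pi-Phf20.2, named for the chromatin protein gene Phf20 on chromosome 2, had 225.8 and 139.1 in B16, against 5.68 and 11 in KP (log2 change 4.48, limma adjusted p = 0.00401). pi-Ccrn4l.2, named for the circadian gene Ccrn4l (Noct) on chromosome 3, had 324 and 220.8 in B16, against 19.1 and 29.8 in KP (log2 change 3.48, limma adjusted p = 0.026). Only pi-Phf20.2 of these 3 passed with each library left out; the other calls had limma adjusted p of 0.0626 to 0.123.

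Divided by IAPEZI in the same library, pi-Phf20.2 was at 0.154 and 0.143 in B16 and at 0.147 and 0.166 in KP. The same ratio of 10-qC1-2617.1 was 0.145 and 0.118 in B16 and 0.16 and 0.19 in KP, and that of pi-Ccrn4l.2 was 0.221 and 0.226 in B16 and 0.496 and 0.45 in KP. Only pi-Phf20.2 of these 3 overlapped between lines, and the ratio of group means (B16 over KP) was 0.752 for 10-qC1-2617.1 and 0.473 for pi-Ccrn4l.2. By contrast pi-Rplp1.1 was at 0.424 and 0.517 in B16 and at 47.4 and 22.9 in KP. The loci 17-qA3.3-26735.2 and 17-qA3.3-26735.3 held equal numbers of fragments, 45368 in B16 and 585.8 in KP, and are not separate measurements. Whether these loci and IAPEZI hold the same reads was not tested.

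**Figure D5:**
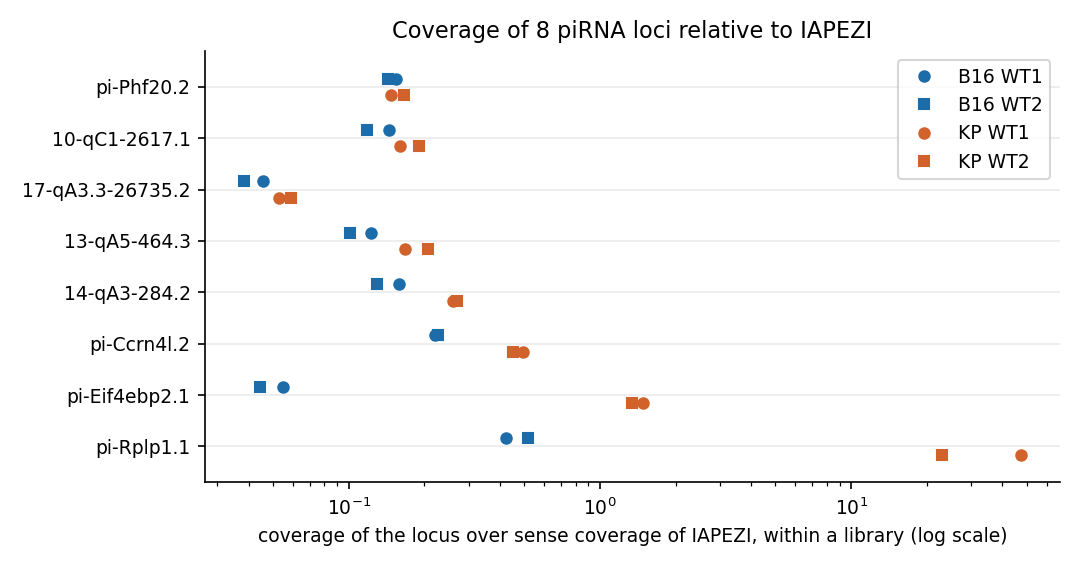
Coverage of 8 piRNA loci divided by the sense coverage of IAPEZI in the same library (log scale), with blue B16 points above orange KP points. For pi-Phf20.2 all 4 libraries lie between 0.143 and 0.166, whereas pi-Rplp1.1 lies at 0.424 and 0.517 in B16 and at 47.4 and 22.9 in KP.

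A further set of loci was seen almost wholly in B16. 8-qC5-8200.1, an intergenic locus on chromosome 8, had 7.15 and 6.79 in B16 and 0 in both KP libraries, at least 29.2-fold higher (limma adjusted p = 0.000196), from 761.1 fragments in B16. pi-Rab11fip4.1, named for the Rab11 effector gene Rab11fip4 on chromosome 11, had 6.77 and 4.83 in B16, against 0.0567 and 0 in KP (log2 change 6.30, limma adjusted p = 0.000383). pi-Hjurp.1, named for the centromeric histone chaperone Hjurp on chromosome 1, had 0.777 and 0.921 in B16 and 0 in KP, at least 2.96-fold higher (limma adjusted p = 0.00242). All 3 passed without each library in turn.

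Of the loci higher in KP, 17-qA3.3-27363.1 had 0.107 and 0.224 in B16, against 4.44 and 7.36 in KP (log2 change -4.80 ± 0.81, SE; limma adjusted p = 0.00512), and passed without each library in turn. pi-Ddx19b.3, named for the RNA helicase gene Ddx19b, had 6.57 and 5.95 in B16, against 35 and 41.1 in KP (log2 change -2.59, limma adjusted p = 0.0246). pi-Shank3.3, named for the synaptic scaffold gene Shank3, had 0 in both B16 libraries, against 1.95 and 1.55 in KP, at least 95.5-fold higher in KP (limma adjusted p = 0.0223). Neither of these 2 passed with any of the 4 libraries left out. pi-Hist1h1a.1, named for the linker histone gene Hist1h1a (H1f1), had 0.115 and 0.275 in B16, against 186.4 and 7.54 in KP, and its size was set by KP WT1: the log2 change was -7.35 with it (limma adjusted p = 0.0384) and -5.04 without it (limma adjusted p = 0.176). It passed only without KP WT2 among the 4 fits with a library left out (limma adjusted p = 0.0475).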

How the data were processed

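Strand-specific RNA sequencing was done by the submitters on ribosome-depleted total RNA, per the labels' protocols. HISAT2, DESeq2 and the mm10 build appear in the submitters' processing notes with no role or version. The deposited values are named piPipes mean signal and were read as coverage per base, with sense signal positive and antisense signal deposited as negative numbers whose sign was dropped. Library depth is not given in the sources used here. For 660 of 661 elements with at least 6 nonzero values (99.8%), every deposited value was a whole multiple of the element's own smallest step, which shows signal not scaled to depth, and 299 covered bases were taken as 1 fragment. After 6 exact duplicates were dropped, coverage was expressed per 10000 of the both-strand total without 7SL, filtered at a mean of 0.1 over the 4 WT libraries, and tested as log2(value + 0.05) with limma 3.58.1 in R 4.3.3 (eBayes with trend, two-sided, Benjamini-Hochberg at 0.05). All 13 libraries, in 6 groups, entered the fit (7 residual degrees of freedom). Fold changes on that scale understate changes of low entries. Floors of 3 fragments cover counting error only. The fit was checked on simulated data.

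The members, families and tests were chosen with earlier results of these data known. Named repeats were the 15 largest called changes in each direction over the floor, the best-covered strand of each family and the 15 best-covered repeats of each line, and piRNA loci followed the same rule with 8 and 10. Chosen outside the rule with their values in view were IAPLTR3, IAPEY4_LTR, RLTRETN_MM, BGLII_LTR, ETnERV2, ETnERV3, ORR1B1-int, ORR1D1_LTR, GSAT_MM sense, and all but 10 elements of the strand test. The alternatives were 5 other scalings, other pseudocounts and filters, other sets of libraries and a replicate block. Scaling by covered bases was added after seeing the data. Where a library is left out, the lone library of its group is assumed to vary like the other groups.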

Additional observations from a re-analysis of the deposited data

How the results depend on the processing

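The coverage of repeats and loci was refitted under each alternative. Main counts were 84 strands higher in B16 and 45 higher in KP. Deposited coverage without scaling gave 444 and 12, a minimum mean scaled coverage of 1 gave 37 in B16, and the fit without the DKO group and KP Tdg KO library 1 gave 153 and 92. The count in KP was 102 with the median ratio, 147 with quantile normalization, 80 with the pseudocount multiplied by 10, 200 with covered bases and 183 with the 4 WT libraries and the median ratio. Leaving out each WT library gave 18 to 50 in B16 and 4 to 16 in KP. For the strand ratio the 4 WT libraries alone gave 5 and 17, against 20 and 38, and leaving out a library gave 7 to 20 toward sense and 20 to 46 toward antisense. What moved these counts was not tested.

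A replicate block on the numbers gave 158 and 135 strands, and the crossed pairing, chosen after seeing the data, gave 125 and 116. Deviations of WT libraries with the same number had a correlation of -0.113 between the lines. The labels do not say what a shared number marks, and whether it marks a batch was not tested.

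Differences in family share (percentage points, B16 minus KP) reversed as follows. With 7SL in the denominator they were 0.00118 for B1 sense, 0.0171 for B2 antisense, 0.427 for RLTR4 sense, 0.147 and 0.217 for MaLR sense and antisense, 0.00471 and 0.0122 for other satellites, and 0.394 for gene-named piRNA loci sense. Leaving out each library, they ranged from -0.556 to 0.303 for MaLR sense, -1.4 to 0.194 for MaLR antisense, -0.599 to 0.319 for B2 antisense, -0.0977 to 0.433 for ERV2 LTRs sense, -0.0174 to 0.152 for MERVL and MT2 sense and -0.4 to 0.835 for other LINE-1 sense. Of 97 named strands 73 kept their sign in every refit, and 24, none of them called (0), changed it in at least 1. Past the threshold, 3 turned on the unscaled values: MTAI sense (2.07), pi-Eif4ebp2.1 (1.83) and pi-Mafg.1 (1.23). The KP libraries' low non-7SL depth limits what can be read from entries at 0 there.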
